A study of Mus musculus with 3 samples.

Results

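Fibroblast-like nuclei of the mouse lacrimal gland, the gland that secretes the watery part of tears, are described here in 3 libraries in which RNA of single nuclei was captured in droplets and read from its 3' end (10x Genomics, V3 kit). They are 914 of 29220 kept nuclei, chosen by a rule on their measured UMIs (unique molecular identifiers, 1 per counted molecule). A nucleus had to carry at least 3 UMIs, from at least 2 genes and making up at least 0.15% of its total, of Pdgfra, Col1a2, Col3a1, Col5a2, Dcn, Fbn1, Abca8a, Lama2 and Slit3. At most 0.1% of its UMIs could come from Ptprb, Emcn, Rgs5, Notch3, Cspg4, Trp63, Skap1, F13a1 and Adgre1, genes of endothelial, mural, myoepithelial, T and macrophage cells. The levels of these 18 genes are therefore a description of the choice and support nothing below.

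The control library came from normal mice, the scopolamine library from mice with dry eye induced by scopolamine, a blocker of muscarinic receptors, together with dry stress. The tamsulosin library came from mice with the same induced dry eye that also received tamsulosin, a blocker of alpha-1 adrenergic receptors. Strain, genotype, sex, age, dose, duration and hour of collection, and the number of glands or animals per library, are not given in the sources used here. Each group was 1 library, so no difference below has a replicate check and none was tested across animals. Intervals are 95% intervals for counting error only.

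Fibroblasts of a gland lie in the connective tissue between the acini, ducts and vessels. They secrete and remodel collagen, laminin and elastic fibres, and they send growth factors to the epithelium, among them Fgf10, which is required for the lacrimal gland to form. Fibroblasts also carry a circadian clock, in which Arntl (BMAL1) pairs with Clock or Npas2 to drive Per, Cry, Nr1d and Dbp family genes, whose products in part repress that drive.

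The rule chose 202 of 7194 control nuclei (2.81%, exact Clopper-Pearson interval 2.44 to 3.22), 365 of 10006 scopolamine nuclei (3.65%, 3.29 to 4.03) and 347 of 12020 tamsulosin nuclei (2.89%, 2.59 to 3.20). The chosen nuclei had median UMI totals of 2529.5, 2077 and 2922, in that order of libraries, and 612525, 1189326 and 1238606 UMIs together. The labels' protocol mentions a sort of red fluorescent nuclei, and the sources used here do not settle whether these nuclei were so sorted, so shares are of the barcodes deposited. The lowest deposited UMI total also differed, at 1492, 967 and 1534. Of the chosen nuclei, 7, 29 and 14 sat at the minimum of 3 UMIs and 48, 92 and 92 had less than 0.3% of their UMIs from the 9 genes. Just outside, 232, 337 and 304 nuclei had 2 such UMIs, and 129, 176 and 130 failed on the 0.15% share alone. Between 22 and 35 barcodes were shared by any 2 libraries, and none of them was among the chosen nuclei.

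The label was checked against 6 defining markers, of which Fgf10 was outside the rule. Fgf10 lay at 343, 527 and 605 CPM (UMIs scaled to a summed total of 1e6) in the chosen nuclei and at 4.19, 10.6 and 4.58 CPM in all other nuclei. Of the genes outside the rule, the 20 with the highest lowest-of-3 ratio ran from Adam12, a metalloprotease, at 14.4-fold to Adamts12, a matrix protease, at 32.8-fold, on the scale of CPM plus 10. Dlc1 lay at 2126, 2006 and 2149 CPM, against 38.4, 57.2 and 23.8 in other nuclei. Prrx1, a transcription factor of mesenchyme, lay at 358, 337 and 365 CPM, and Ebf1, a factor of stromal and B cells, at 2780, 2239 and 2051 CPM. Between libraries, the levels of Dlc1, Prrx1 and Ebf1 stayed within 2-fold.

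The chosen nuclei are not pure. Clustering them gave 8 sub-clusters, which are described by their leading genes and are not compared in size between libraries. Sub-cluster 0 (330 nuclei) was led by Mdga2, Brinp3, Thsd7a and Pappa and held the highest summed level of periglandular-type fibroblast markers, 1997 CPM. That list of 10 genes includes Fgf10 and Rspo3, a Wnt agonist among the leading genes here, but also Tcf21, which had no UMI in any library. The sum was 1624, 1506 and 1274 CPM in sub-clusters 7, 3 and 5, so it is not particular to sub-cluster 0. Sub-cluster 4 (75 nuclei) was led by Opcml and Creb5 and had 4813 CPM of adventitial-type fibroblast markers, with Anxa3, Sema3c and Pi16 among its leading genes, so it is called adventitial-type-like. Sub-cluster 3 (69 nuclei) was led by Sntg2, Csmd1 and Dkk2, a Wnt inhibitor, and had 5303 CPM of the fibroblast markers. Of these markers only Fgf10 is outside the rule, so the sum mostly describes the choice and does not support the name. These 3 held 474 of the 914 nuclei, 107, 195 and 172 by library, and are called the fibroblast-led nuclei below. That name is a working label set after seeing the leading genes. Sub-cluster 7, left out for its immune genes, had 4185 CPM of the fibroblast markers, above the 3239 CPM of sub-cluster 4.

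The remaining sub-clusters were led by other genes, in most cases of another class. Sub-cluster 1 (200 nuclei) was led by secretory transcripts such as Mucl2 and Obp1a, and 5 secretory genes took 35.5% of its UMIs. Sub-cluster 2 (148 nuclei) was led by Pcdh15, Slc35f1 and Csmd1, with Esrrg, Kcnn2 and Myo5c also among its 15 leading genes. Its perineurial or endoneurial markers summed to 707 CPM, the highest of the sub-clusters. In all nuclei outside the rule they summed to 698, 680 and 524 CPM by library, so sub-cluster 2 stays unnamed. Smooth muscle markers summed to 3116 CPM in sub-cluster 5 (24 nuclei), duct markers to 5030 CPM in sub-cluster 6 (48 nuclei), and macrophage and T or NK markers to 781 and 281 CPM in sub-cluster 7 (20 nuclei). Whether these are 2 nuclei in 1 droplet, free RNA or real co-expression was not tested. A doublet caller marked 0, 1 and 5 barcodes in the whole libraries, and no barcode was removed on its calls.

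**Figure D1:**
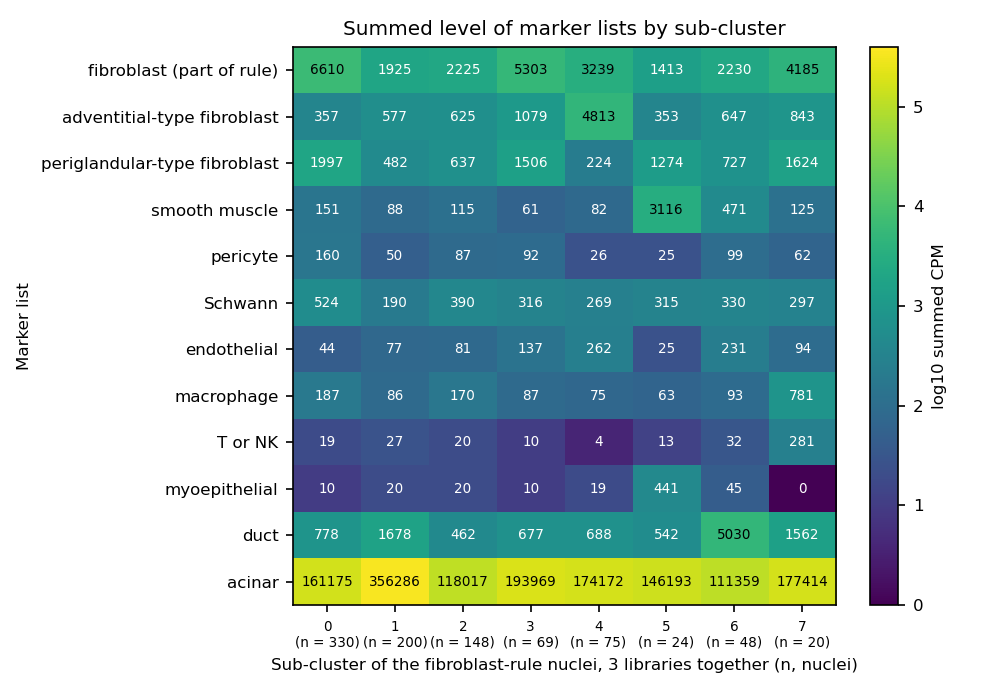
Summed level (CPM, numbers in cells, colour on a log10 scale) of 12 marker lists (rows) in the 8 sub-clusters of the fibroblast-rule nuclei (columns, with nuclei from 3 libraries together). Adventitial-type markers peak in sub-cluster 4 at 4813 CPM, periglandular-type markers in sub-cluster 0 at 1997 CPM, and sub-clusters 5, 6 and 7 stand out for smooth muscle, duct and immune markers.

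Markers of other cell types in the chosen nuclei as a whole differed between libraries. All 9 acinar markers had UMIs in each library and summed to 53709, 167437 and 246587 CPM, against 57524, 243977 and 296881 CPM in other nuclei. Duct markers summed to 175, 508 and 2523 CPM, with 4 of 8 at 0 in control, against 256, 546 and 3911 CPM in other nuclei. The 8 macrophage markers summed to 167, 167 and 128 CPM, against 188, 157 and 95.3 CPM in other nuclei. The 8 endothelial markers summed to 52.2, 98.4 and 132 CPM, lowest in control, against 51.8, 105 and 129 CPM in other nuclei. Acinar, duct and endothelial sums thus had the same order of libraries in other nuclei. Their part in the differences below was not tested. The main results are also given for the fibroblast-led nuclei. Named genes were required to be at least 2-fold above other nuclei in the higher library. The fibroblast-led nuclei are not free of such RNA. Acinar markers summed to 161175, 193969 and 174172 CPM in sub-clusters 0, 3 and 4. By library, the fibroblast-led nuclei had the acinar marker Mucl2 at 17830, 56122 and 88266 CPM. The duct marker Ltf lay at 149, 241 and 1391 CPM in them.

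Ratios between libraries were formed over 3479 genes with a mean of at least 50 CPM, as log2 of CPM plus 10, less the median of those genes. That median was -0.22 for scopolamine against control and -0.24 for tamsulosin against scopolamine. A gene is counted as different past 2-fold on this relative scale, and folds written as "-fold" are plain CPM ratios. In the scopolamine library 113 genes (3.25%) were at least 2-fold higher than in control and 30 (0.862%) at least 2-fold lower. Without subtracting the median these counts were 64 and 67. For tamsulosin against scopolamine they were 109 (3.13%) and 9 (0.259%), and 72 and 57 without the subtraction. For tamsulosin against control they were 239 (6.87%) and 65 (1.87%), and 148 and 344 without it. The 3 comparisons share libraries.

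Of 490 genes in 27 lists by role, 152 entered the first comparison, and 11 of them (7.24%) were at least 2-fold higher and 5 (3.29%) lower in scopolamine than in control. These 16 genes belong to the matrix, growth factor, guidance, fat and clock lists and are named below, and 1 of the higher ones, Fbn1, is a gene of the rule. The lists were chosen with earlier results of these data known, so this share supports nothing about them. The same holds for the counts per list below, which stand beside 3.25% of all genes higher and 0.862% lower.

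Among matrix genes, collagen levels in the scopolamine library differed by chain. Of 9 fibrillar collagen genes, 7 entered the comparison and 1 was past 2-fold, but Col1a2, Col3a1 and Col5a2 are genes of the rule and count for nothing here. Col5a3, the alpha-3 chain of type V collagen (chr9:20770050-20815067, minus strand, mm10), lay at 52.2 CPM in control, 181 in scopolamine and 178 in tamsulosin. The scopolamine value was 3.46-fold that of control (2.38 to 5.19), and both dry eye libraries lay above control. Over all chosen nuclei Col1a1, at 50.6, 48.8 and 90.4 CPM, did not share this pattern. In the fibroblast-led nuclei Col1a1 lay at 59.0, 74.2 and 119 CPM, from 19, 37 and 66 UMIs, with both dry eye libraries above control. Its relative log2 ratio of scopolamine to control was 0.52 there and 0.89 in sub-cluster 0 alone, in place of 0.17. With the highest doublet scores removed it was 0.10. All of these ratios were short of 2-fold. Col4a3, a type IV collagen chain of basement membranes, was the 1 of 12 non-fibrillar collagen genes past 2-fold, at 22.9, 92.5 and 72.7 CPM (4.05-fold for scopolamine over control, 2.31 to 7.64). Col4a1 and Col4a2, the common type IV chains, had relative log2 ratios of 0.58 and 0.42.

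Of 21 elastic fibre genes, 4 entered the comparison and 2 were past 2-fold, Eln and the rule gene Fbn1, beside 3.25% of all genes. Eln, which encodes elastin, lay at 55.5, 108 and 157 CPM, lowest in control and 1.94-fold higher in scopolamine (1.32 to 2.92). Fbn1, a gene of the rule and so only described, lay at 176, 364 and 365 CPM. Fbn2, the related fibrillin, was too low to enter, with 1, 32 and 29 UMIs. In the fibroblast-led nuclei Eln lay at 68.3, 191 and 221 CPM.

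Matrix remodelling genes included both directions. Timp3, an inhibitor of metalloproteases held in the matrix (chr10:86300372-86349506, plus strand), lay at 297, 75.7 and 109 CPM. It was 3.93-fold lower in scopolamine than in control (3.03 to 5.11), the lowest relative ratio of the 12 lowest genes, and was also low in tamsulosin. Mmp3, a matrix metalloprotease, lay at 40.8, 99.2 and 128 CPM, 2.43-fold higher in scopolamine (1.57 to 3.91). The other 11 of 13 remodelling genes that entered were within 2-fold. Svep1, a large extracellular adhesion protein, lay at 356, 139 and 134 CPM, 2.57-fold lower in scopolamine (2.09 to 3.16). Ccbe1, a matrix protein needed for lymphatic growth, lay at 562, 157 and 187 CPM, 3.57-fold lower (2.98 to 4.29). Control alone was high for Timp3, Svep1 and Ccbe1, and in other nuclei Svep1 and Ccbe1 were at or below 18.5 CPM.

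Genes of growth factor signalling were mostly within 2-fold. Fgf10 was 1.54-fold higher in scopolamine (1.31 to 1.81), with a relative log2 ratio of 0.82 that is short of 2-fold. That ratio was past 2-fold in the fibroblast-led nuclei (1.10), under a stricter rule (1.21) and with nuclei thinned to 1000 UMIs (1.30). It stayed short of 2-fold with the highest doublet scores removed (0.84) and without sub-cluster 4 (0.92). In sub-cluster 0 alone Fgf10 lay at 487, 1133 and 1130 CPM, a relative log2 ratio of 1.44. Igfbp5, an insulin-like growth factor binding protein, lay at 37.6, 94.2 and 119 CPM, 2.51-fold higher in scopolamine (1.59 to 4.12). Fgfr2, the receptor that answers Fgf10 in epithelium, lay at 88.2, 264 and 205 CPM in the chosen nuclei, and at 131, 236 and 269 CPM in other nuclei, so it was above them only in scopolamine. The guidance ligand Efna5 was 2.02-fold higher (1.71 to 2.39), with relative log2 ratios of 1.21 here and 1.06 in other nuclei. Lpl, a lipase that releases fatty acids, lay at 32.7, 108 and 153 CPM, 3.32-fold higher in scopolamine (2.06 to 5.62). Of 16 adipogenic genes only 4 entered the comparison, and Lpl alone was past 2-fold.

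Nox4, an oxidase that makes hydrogen peroxide (chr7:87246096-87398710, plus strand), lay at 19.6, 104 and 89.6 CPM, 5.32-fold higher in scopolamine (2.94 to 10.6). Its UMIs numbered 12, 124 and 111, of which 2, 68 and 58 came from sub-cluster 4, with 10, 39 and 26 nuclei. Within sub-cluster 4 Nox4 lay at 67.2, 479 and 606 CPM. Without this sub-cluster the relative log2 ratio of Nox4 was 1.45 in place of 2.17. Creb5, Nova1, Smpd3, Ppp2r2b and Zfpm2 were also among the 12 highest genes and also lead sub-cluster 4. Creb5, a transcription factor, lay at 101, 285 and 203 CPM over all chosen nuclei but at 1210, 1683 and 1735 CPM within sub-cluster 4, where control rested on 36 UMIs. Without sub-cluster 4 the relative log2 ratio of Creb5 was 1.18 in place of 1.63, that of Nova1, an RNA-binding protein, 1.11 in place of 1.66, and those of Smpd3, Ppp2r2b and Zfpm2 1.43, 1.69 and 1.23.

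All 12 highest named genes had a counting interval that did not reach 1, and no single nucleus gave more than 13.7% of a gene's UMIs in scopolamine. All 12 were past 2-fold under each alternative tried. In the fibroblast-led nuclei they had a median relative log2 ratio of 2.04 against 1.69 in all chosen nuclei. In other nuclei 3 of the 12 were past 2-fold in the same direction, Npas2, Igfbp5 and Rhoj. This count is shaped by the demand for 2-fold above other nuclei, so it does not measure how particular the differences are. Arntl and Fgfr2, with relative log2 ratios of 2.32 and 1.70, were passed over by that demand. Rhoj lay at 189, 509 and 486 CPM, 2.69-fold higher in scopolamine (2.20 to 3.31).

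The 12 lowest named genes were less stable. Of them 9 were past 2-fold, and the counting intervals of all 12 did not reach 1. Besides Timp3, Ccbe1 and Svep1 they included Lamc3, a laminin chain, at 109, 35.3 and 53.3 CPM, Cdh19, a cadherin, at 147, 45.4 and 50.9 CPM, and Mdga2, an adhesion protein, at 260, 84.1 and 129 CPM. Aldh1a1, an enzyme of retinoic acid synthesis, lay at 346, 151 and 188 CPM. In the fibroblast-led nuclei 7 of the 12 were past 2-fold, in sub-cluster 0 alone 3, and with every nucleus thinned to 1000 UMIs 4, in each case with all 12 lower in scopolamine.

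**Figure D2:**
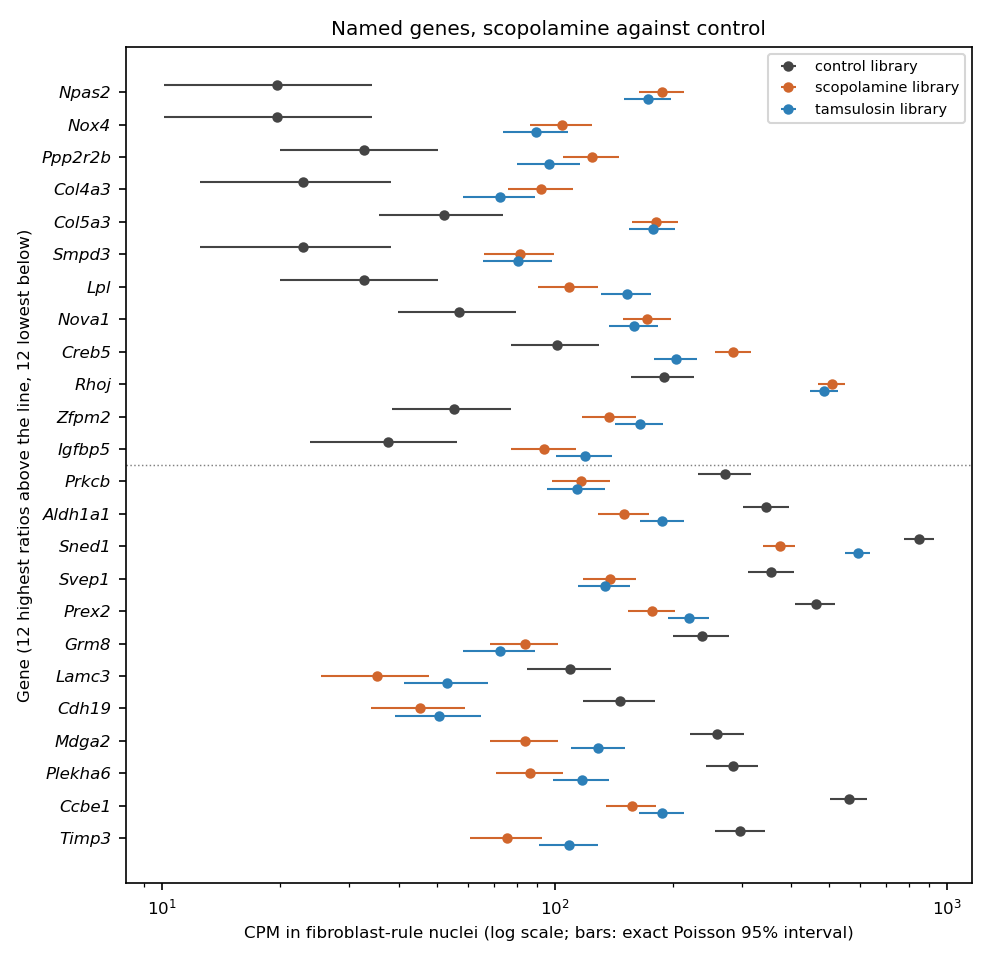
CPM (log axis) in the fibroblast-rule nuclei of the 3 libraries for the 12 genes with the highest and the 12 with the lowest relative ratio of scopolamine to control among genes at least 2-fold above other nuclei in the higher library, with exact Poisson 95% intervals for counting error. The tamsulosin points lie beside the scopolamine points and away from control for most genes, as for Npas2 at 19.6, 188 and 173 CPM.

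Clock genes showed the clearest differences between control and both dry eye libraries. Npas2 (chr1:39193731-39363236, plus strand) lay at 19.6 CPM in control, 188 in scopolamine and 173 in tamsulosin, from 12, 223 and 214 UMIs. It was 9.57-fold higher in scopolamine (5.37 to 18.8), with a relative log2 ratio of 2.96, the highest among the named genes. Arntl lay at 22.9, 131 and 89.6 CPM, 5.74-fold higher (3.32 to 10.7). Clock, the other partner of Arntl, lay at 196, 208 and 157 CPM, and Rora, a nuclear receptor that activates Arntl, at 2650, 1483 and 1531 CPM, a relative log2 ratio of -0.61. So 2 of the 4 activators that entered the comparison were past 2-fold, both higher, beside 3.25% of all genes higher.

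The repressor and output genes that entered were lower in scopolamine. Nr1d2, which encodes the repressor REV-ERB beta, lay at 320, 56.3 and 58.1 CPM, 5.68-fold lower in scopolamine (4.28 to 7.61). Per3, a period gene, lay at 126, 32.8 and 24.2 CPM, 3.83-fold lower (2.58 to 5.79), and Tef, an output transcription factor, at 222, 79.9 and 50.1 CPM, 2.78-fold lower (2.12 to 3.65). Of 11 repressors 2 entered the comparison and both were past 2-fold, and of 6 outputs the 1 that entered was. Over all genes 0.862% were at least 2-fold lower. The clock lists too were chosen with earlier results known, so these counts support nothing about them. Genes too low to enter were mixed. In CPM, Nr1d1 lay at 32.7, 7.57 and 11.3, Dbp at 31.0, 5.04 and 5.65, and Hlf at 73.5, 24.4 and 28.3, each highest in control. Per1 lay at 19.6, 24.4 and 16.1 CPM, Per2 at 24.5, 10.1 and 17.0, Cry1 at 29.4, 26.1 and 16.1, and Cry2 at 44.1, 32.0 and 26.6, from 12 to 38 UMIs each. Control stood apart from both dry eye libraries for Nr1d2, Per3 and Tef, and the labels give no hour of collection, so hour and treatment cannot be told apart.

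At a fixed 1000 UMIs per nucleus, Npas2 was seen in 1.98, 16.8 and 12.7% of the chosen nuclei (4 of 202, 61 of 363 and 44 of 347). It was seen in 0, 2.11 and 0.532% of macrophage-rule nuclei, another class at the same depth. Free RNA and expression by the macrophage-rule nuclei themselves cannot be told apart here. The 0 of 106 macrophage-rule nuclei in control has an exact upper limit of 3.42%. Nr1d2 was seen in 27.7, 5.79 and 5.19% of the chosen nuclei and in 24.5, 4.21 and 2.66% of macrophage-rule nuclei. Unthinned, Npas2 was seen in 11, 126 and 121 of the chosen nuclei and Nr1d2 in 114, 51 and 49, and 2 scopolamine nuclei were too shallow to thin. Relative log2 ratios of scopolamine to control in macrophage-rule, endothelial-rule and all other nuclei were 1.40, 3.11 and 1.90 for Npas2. They were 1.30, 2.52 and 1.71 for Arntl, against 2.32 in the chosen nuclei, and -2.30, -1.51 and -1.49 for Nr1d2, against -2.10. Npas2, Arntl and Nr1d2 thus had the same direction in all 4 sets of nuclei. For Npas2 in macrophage-rule nuclei this rests on few nuclei, 4 of 190 with a UMI in scopolamine after thinning. The endothelial-rule nuclei numbered only 36, 99 and 97.

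**Figure D3:**
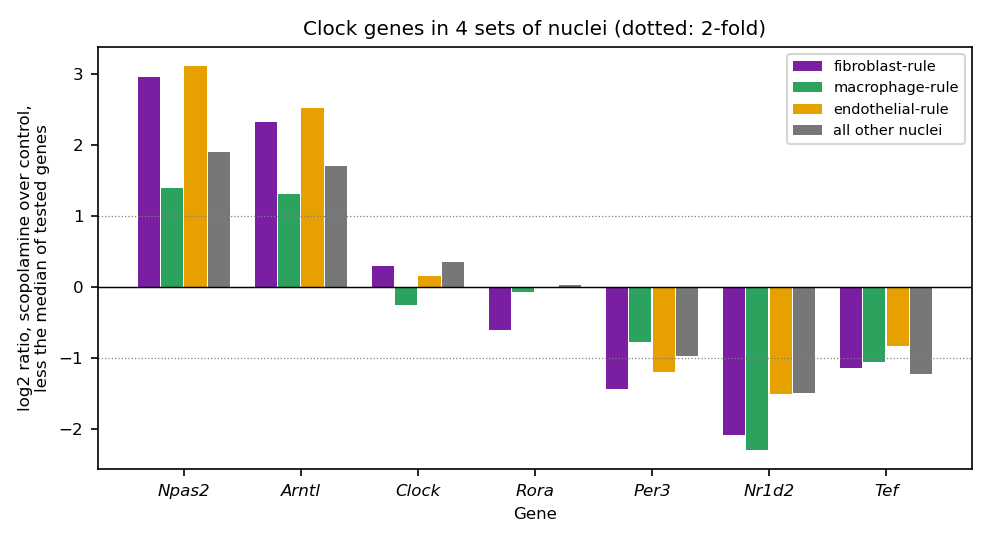
Relative log2 ratio of scopolamine to control (y axis, median of tested genes subtracted) for 7 clock genes in fibroblast-rule, macrophage-rule, endothelial-rule and all other nuclei (bars). Npas2 and Arntl lie above the 2-fold line and Nr1d2 below it in all 4 sets, while Rora is at -0.61 in the fibroblast-rule nuclei and near 0 in the rest.

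Promoter sequences of Nr1d2 and Tef are shown because these genes had the lowest ratios among clock genes with a match in the window. RefSeq promoters (GRCm38.p6, 250 bases before to 50 after the start) were found for 19 of 23 clock-list genes. They were searched on both strands for the core of the ROR and REV-ERB element, AGGTCA, and for the canonical E-box, CACGTG, which reads the same on both strands. AGGTCA was in 5 of the 19 genes and in 16.3% of 32851 promoters, and CACGTG in 5 of the 19 and in 7.15% of all promoters. A gene was counted if any of its promoters matched, while the shares over all are per single promoter, so the units differ. Capitals mark the match. The windows are chr14:18239151-18239210 (minus strand, match starting 77 bases before the start of Nr1d2) and chr15:81802519-81802578 and chr15:81811249-81811308 (plus strand, matches starting 127 and 138 bases before 2 starts of Tef).
Nr1d2: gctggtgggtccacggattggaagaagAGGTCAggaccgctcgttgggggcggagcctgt
Tef start 1: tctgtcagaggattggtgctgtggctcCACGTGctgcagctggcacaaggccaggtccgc
Tef start 2: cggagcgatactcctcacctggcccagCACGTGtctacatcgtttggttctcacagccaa
No match to either was in the windows of Npas2, Per3, Dbp, Hlf or Nr1d1, which says only that these letters are not there.

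More genes were higher than lower in tamsulosin against scopolamine, by a margin that depended on the processing. The 109 higher and 9 lower became 72 and 57 without subtracting the median, 104 and 64 in the fibroblast-led nuclei, and 150 and 78 with the highest doublet scores removed. Of the 12 highest named genes 9 were past 2-fold, and of the 12 lowest none was. The counting intervals of the plain CPM ratio did not reach 1 for all 12 highest and for 10 of the 12 lowest. In the fibroblast-led nuclei 5 of the 12 highest were past 2-fold, and without subtraction of the median 2, in each case with all 12 higher in tamsulosin. With the highest doublet scores removed, only 6 of the 12 lowest stayed lower. Csmd1, a complement regulator, lay at 266, 188 and 805 CPM, 4.27-fold higher in tamsulosin (3.69 to 4.96), but 60% of its tamsulosin UMIs came from sub-cluster 2 and 107 of 997 from 1 nucleus. In the fibroblast-led nuclei its relative log2 ratio was 1.36 in place of 2.28.

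Iigp1, B2m, C1s1 and Cxcl12 were among the highest named genes. Iigp1, an interferon-inducible GTPase, lay at 93.1, 109 and 244 CPM, 2.23-fold higher in tamsulosin (1.81 to 2.76). In the fibroblast-led nuclei its relative log2 ratio was 0.69 in place of 1.33, and in sub-cluster 0 it lay at 139, 280 and 283 CPM. B2m, the shared chain of MHC class I, lay at 34.3, 52.1 and 112 CPM, 2.15-fold higher (1.58 to 2.95), and had a relative log2 ratio of 1.06 in other nuclei too. C1s1, a complement protease, lay at 132, 78.2 and 143 CPM, and Cxcl12, a chemokine of stromal cells, at 70.2, 32.0 and 61.4 CPM, so tamsulosin was near control for both. C1s1 was 1.83-fold higher in tamsulosin than in scopolamine (1.41 to 2.38) and Cxcl12 1.92-fold (1.28 to 2.91). Of 26 interferon-stimulated genes 8 entered and 2 (Iigp1 and B2m) were past 2-fold, and of 37 inflammatory genes 6 entered and 2 (C1s1 and Cxcl12) were, beside 3.13% of all genes. C1s1 and Cxcl12 were close to the limit, with relative log2 ratios of 1.03 and 1.01. Without subtraction of the median B2m, C1s1 and Cxcl12 were at 0.98, 0.79 and 0.77, and Iigp1 at 1.09. The lists were chosen with earlier results of these data known, so these shares support nothing about them. The medians of these lists were 0.47 and 0.51, beside 0.30 over all listed genes. Markers of B or plasma cells summed to 18.0, 22.7 and 71.9 CPM in the chosen nuclei and to 18.9, 22.1 and 77.9 CPM in other nuclei. Mitochondrial UMIs made up 0.287, 0.306 and 0.723% in the chosen nuclei and 0.238, 0.342 and 0.907% in other nuclei. Both were highest in tamsulosin, and their part was not tested.

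Among matrix genes, Col1a1 was 1.85-fold higher in tamsulosin than in scopolamine (1.34 to 2.59). The other fibrillar collagen genes that entered and were not in the rule, Col5a1, Col5a3 and Col27a1, had relative log2 ratios of 0.47, 0.22 and 0.76, all within 2-fold. The median over all 152 listed genes was 0.30. Col3a1, a gene of the rule, lay at 361, 462 and 642 CPM. Gsn, which encodes gelsolin, an actin-severing protein, lay at 478, 383 and 708 CPM, 1.85-fold higher in tamsulosin (1.65 to 2.08). Dcn, a proteoglycan and rule gene, lay at 872, 503 and 732 CPM.

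The lowest named genes in tamsulosin were Fndc1, Pde10a, Ism1 and Opcml, all within 2-fold on the relative scale, and of these Fndc1 and Opcml lead sub-cluster 4. Fndc1, a fibronectin-domain protein, lay at 81.6, 148 and 73.5 CPM, 2.01-fold higher in scopolamine than in tamsulosin (1.56 to 2.62), with 126 of 176 scopolamine and 67 of 91 tamsulosin UMIs in sub-cluster 4. Pde10a, a phosphodiesterase, lay at 53.9, 100.1 and 54.1 CPM. Within sub-cluster 4 Opcml, an adhesion protein, lay at 1378, 1768 and 1850 CPM, while over all chosen nuclei it lay at 136, 281 and 177 CPM, highest in scopolamine. Without sub-cluster 4 the relative log2 ratio of tamsulosin to scopolamine was -0.66 for Fndc1, in place of -0.68, and -0.70 for Opcml, in place of -0.40. Pdgfc, a growth factor, lay at 198, 173 and 68.6 CPM. It was less than 2-fold above other nuclei in scopolamine, so it did not meet the rule for named genes.

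**Figure D4:**
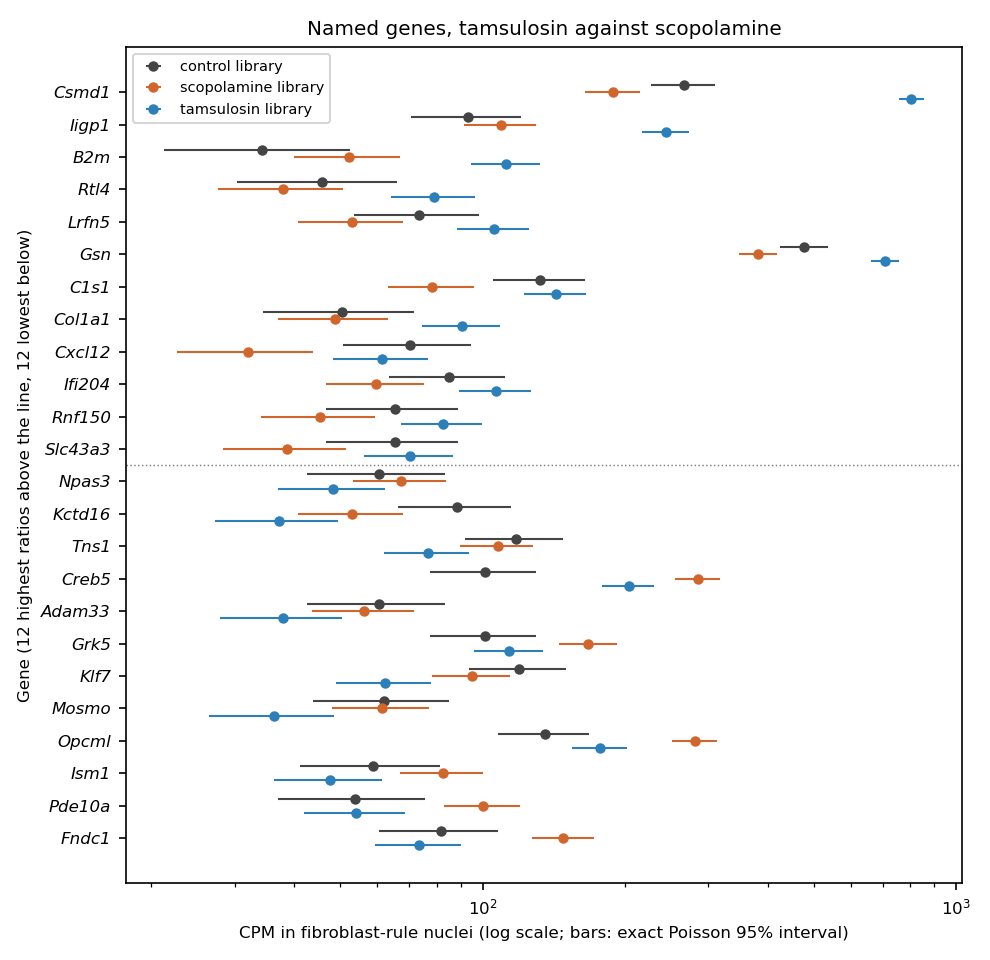
CPM (log axis) in the fibroblast-rule nuclei of the 3 libraries for the 12 genes with the highest and the 12 with the lowest relative ratio of tamsulosin to scopolamine among genes at least 2-fold above other nuclei in the higher library, with exact Poisson 95% intervals for counting error. Csmd1 at 805 CPM and Gsn at 708 CPM in tamsulosin stand to the right, and C1s1 and Cxcl12 in tamsulosin overlap control. Below the line no gene is past 2-fold on the relative scale, but 10 of the 12 plain CPM ratios have a counting interval that does not reach 1.

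The targets of the 2 drugs were low or not raised in the chosen nuclei. Adra1a, an alpha-1 adrenergic receptor, lay at 180, 107 and 61.4 CPM in them and at 300, 150 and 111 CPM in other nuclei. Adra1b had 0, 6 and 0 UMIs and Adra1d none, where a count of 0 allows up to 3 counts. Chrm3, the muscarinic receptor of acinar cells, lay at 2570, 2472 and 1311 CPM against 3778, 3225 and 2503 CPM in other nuclei, the higher level in each library.

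Several lists had no gene past 2-fold in either comparison over all chosen nuclei, but few of their genes entered. These were 17 of 32 fibroblast transcription factors, 9 of 28 epithelial growth factors, 8 of 15 TGF-beta ligand and receptor genes, 7 of 12 basement membrane genes and 5 of 15 glucocorticoid genes. From 2 to 3 genes entered of each of the BMP, Wnt, proteoglycan, hypoxia and p53 lists. In the fibroblast-led nuclei Fgf10, of the epithelial growth factor list, was past 2-fold for scopolamine over control (1.10). With 3.25% of all genes higher in the first comparison, no call in lists of this size says nothing about them. None of the 12 TGF-beta and BMP target genes reached the level needed. Of the 17 myofibroblast genes 5 entered, with list medians of 0.17 and 0.00, and Acta2, the smooth muscle actin of myofibroblasts, had 16, 34 and 26 UMIs. Lama2, the main laminin chain of these nuclei and a rule gene, lay at 1670, 1782 and 1817 CPM.

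**Figure D5:**
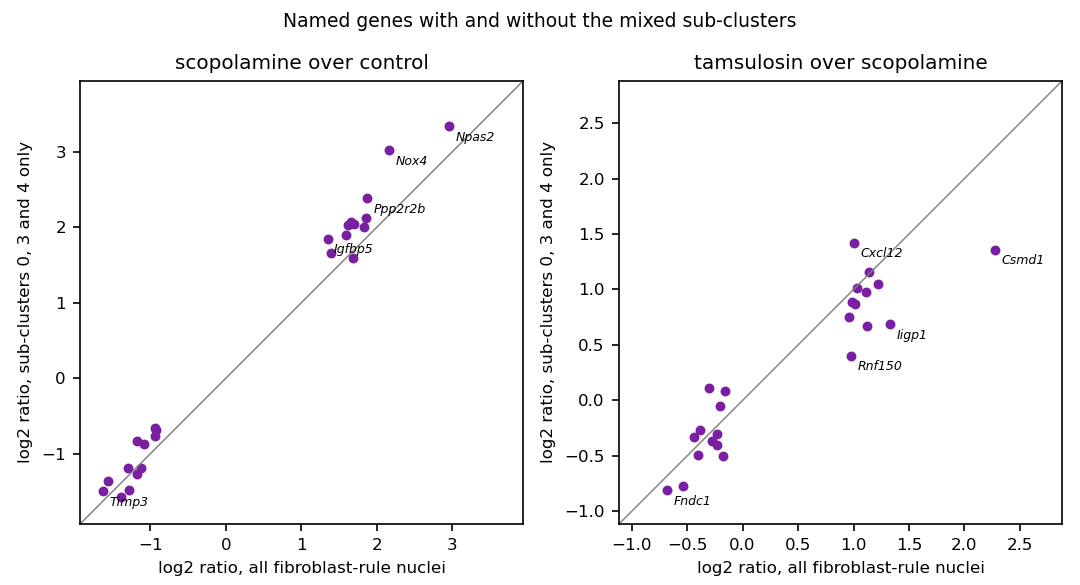
Relative log2 ratios of the named genes in all fibroblast-rule nuclei (x axis) and in sub-clusters 0, 3 and 4 alone (y axis), for scopolamine over control (left) and tamsulosin over scopolamine (right), with the line of equal values. On the left the genes keep their side, with Npas2 and Nox4 highest, and on the right Csmd1 drops from 2.28 to 1.36 and Iigp1 from 1.33 to 0.69.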

How the data were processed

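Counts deposited by the authors are raw UMIs for each gene in each barcode. Cell Ranger 5.0.0 and the build mm10 are named in the submitters' processing notes. Annotation release, counting of intronic reads and barcode filters are not given in the sources used here. Barcodes with at least 500 UMIs, 300 genes and at most 5% mitochondrial UMIs were kept. UMIs were summed per library over the nuclei meeting the rule and given as CPM, with exact Poisson and conditional binomial 95% intervals. Log2 ratios used a pseudocount of 10 CPM less the median over genes with a mean of at least 50 CPM. The calculation was tested on simulated counts. Named genes were the 12 highest and 12 lowest ratios per comparison with at least 30 UMIs and 2-fold other nuclei in the higher library, the 20 most specific genes, and list members. Members and lists were chosen with earlier results of these data known. Macrophage- and endothelial-rule nuclei were set by rules of the same form. Sub-clusters came from 20 principal components, 15 neighbours and Leiden resolution 0.5. Software was Python 3.11.15, numpy 2.4.6, scipy 1.17.1, pandas 2.3.3, scanpy 1.11.5 and matplotlib 3.10.9. Promoters came from RefSeq (GRCm38.p6) and gene coordinates from GENCODE vM21 (mm10). Alternatives covered doublet scores, depth, the rule, thinning, the pseudocount, the low filter, centring and the totals. Restricting to sub-clusters or leaving out 1 nucleus per gene was chosen after seeing the data.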

Additional observations from a re-analysis of the deposited data

How the results depend on the processing

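No paired analysis was possible because each group is 1 library. With 1 library per group no replicate could be left out, and depth limits genes under about 50 CPM to few UMIs in control. For scopolamine against control, the 113 higher and 30 lower genes became 183 and 72 with nuclei thinned to 1000 UMIs, 196 and 53 with the filter at 20 CPM, 217 and 161 with no filter, and 64 and 67 with no subtraction of the median. In sub-clusters 0, 3 and 4 only, 48 were lower. For tamsulosin against scopolamine, the 109 higher genes became 169 with no filter and 72 with no subtraction. The 9 lower genes became 78 with the highest doublet scores removed, 36 when thinned, 4 at a pseudocount of 20 CPM, 18 with the filter at 20 CPM, 57 with no filter, 57 with no subtraction and 64 in sub-clusters 0, 3 and 4. For tamsulosin against control, the 239 higher genes became 426 with the filter at 20 CPM, 467 with no filter and 148 with no subtraction. The 65 lower genes became 131 with the highest doublet scores removed, 159 when thinned, 117 with the filter at 20 CPM, 430 with no filter, 344 with no subtraction and 170 in sub-clusters 0, 3 and 4. More genes are tested under the looser filters, and otherwise the cause was not tested. The share of nuclei became 4.70% in scopolamine at 1600 UMIs or more, 2.13, 2.55 and 2.07% under the stricter rule, and 2.34% in control and 2.28% in tamsulosin when thinned. The median of the adipogenic list, tamsulosin against scopolamine, turned from 0.53 to -0.024 with no filter. No named ratio past 2-fold changed sign under any alternative, and of the named-gene values under alternatives 1403 stayed within their counting interval and 165 moved beyond it, 60 of them in sub-cluster 0 alone.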

Other observations

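Beyond the genes of the comparisons, 3 genes that an earlier clustering of these data put among the strongest in fibroblast-like nuclei were looked at, and this choice was made after their values were seen. Dgkb, a diacylglycerol kinase, had 3, 9 and 46 UMIs in the control, scopolamine and tamsulosin nuclei chosen by the rule, and 37 of the 46 came from 1 nucleus. Kcnab1, a potassium channel subunit, had 4, 24 and 55 UMIs, and Ctnna3, a catenin, 6, 22 and 40. All 3 lay under the mean of 50 CPM that the comparisons required. Complement C3 was also below it, with 8, 36 and 85 UMIs or 13.1, 30.3 and 68.6 CPM. Over all chosen nuclei it was 2.27-fold higher in tamsulosin than in scopolamine (1.52 to 3.45). In the fibroblast-led nuclei C3 lay at 18.6, 46.1 and 44.9 CPM, from 6, 23 and 25 UMIs, so tamsulosin was not above scopolamine there. The cytokine gene Il6 had no UMI in any of the 3 libraries.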
